A study of Mus musculus with 48 samples.

Results

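The effect of deleting CB1 from glutamatergic neurons was described here as a single difference, assumed to be shared by a resting and a stimulated state. Of the 48 libraries of the series, the 24 of the Glu-CB1 line were used, 14 from conditional knockout mice (Glu-CB1-KO) and 10 from their Glu-CB1-WT littermates, and the state of the mouse entered the fit as a covariate. Every gene with enough counts was tested, which left 15355 of the 24421 genes in the table.

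All mice were males of the nex-cre x CB1f/f cross, labelled 8 weeks old, and within 8 to 10 weeks according to the protocol. The Glu-CB1-WT basal group (n = 5) and the Glu-CB1-KO basal group (n = 7) were not exposed to the arena. The Glu-CB1-WT open field group (n = 5) and the Glu-CB1-KO open field group (n = 7) explored a new arena for 5 min. Their tissue was taken not at once but after a delay that the study reports. In the KO mice the floxed CB1 gene is deleted by Cre recombinase under the regulatory elements of Nex, the gene now named Neurod6, and the labels do not say whether the WT littermates carried the Cre allele, so effects of that allele and of the loss of CB1 cannot be told apart. RNA came from the Cornu Ammonis (CA) of the hippocampus after the dentate gyrus had been removed, and each library was 1 mouse. The gene counts of a library summed to between 26088870 and 34060720 reads (median 30723513).

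CB1, encoded by Cnr1, is the main cannabinoid receptor of the brain, a presynaptic receptor coupled to Gi/o proteins that lowers the release of transmitter when postsynaptic cells produce endocannabinoids. In the hippocampus, GABAergic interneurons that contain cholecystokinin carry much more of it than glutamatergic pyramidal cells do, but both use it. Neurod6 is a basic helix-loop-helix transcription factor of glutamatergic forebrain neurons, and this is why its elements are used to direct Cre to them. Neuropeptides such as neuropeptide Y and somatostatin are made mainly by interneurons and act on receptors of the surrounding cells.

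The sequences just upstream of 6 genes that carry the results are shown first. Of these genes, 4 belong to peptide signalling and were higher in KO mice (Npy, Sst, Crhbp and Chga), and Npy among them also lies on chromosome 6. The other 2 are neighbours on chromosome 6 whose KO and WT libraries, like those of Cnr1, did not overlap (Neurod6, lower, and Gm3279, higher). Each sequence is the 250 bases before the start of the gene, 5′ to 3′ on the strand of the gene, from RefSeq on build GRCm38.p6. Capitals mark a match to the cAMP response element (TGACGTCA, the same on both strands) or to an E-box of the kind bound by NeuroD factors (CAGATG, or CATCTG on the other strand).
Npy, chr6:49822460-49822709, plus strand: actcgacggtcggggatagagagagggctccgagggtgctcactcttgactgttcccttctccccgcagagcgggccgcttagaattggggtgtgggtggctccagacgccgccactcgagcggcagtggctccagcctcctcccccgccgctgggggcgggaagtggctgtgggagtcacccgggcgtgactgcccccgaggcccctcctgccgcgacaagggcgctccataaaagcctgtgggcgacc
Sst, chr16:23890845-23891094, minus strand: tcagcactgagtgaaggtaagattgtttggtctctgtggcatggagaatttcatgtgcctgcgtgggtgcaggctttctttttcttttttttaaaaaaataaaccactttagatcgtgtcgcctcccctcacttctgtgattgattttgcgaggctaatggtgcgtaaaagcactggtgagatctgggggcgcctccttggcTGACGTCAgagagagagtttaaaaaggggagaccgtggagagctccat
Crhbp, chr13:95444832-95445081, minus strand: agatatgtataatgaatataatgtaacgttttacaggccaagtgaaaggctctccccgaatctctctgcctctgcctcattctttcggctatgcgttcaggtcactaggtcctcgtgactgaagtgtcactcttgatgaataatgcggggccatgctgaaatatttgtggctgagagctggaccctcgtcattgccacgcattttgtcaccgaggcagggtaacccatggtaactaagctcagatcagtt
Chga, chr12:102554691-102554940, plus strand: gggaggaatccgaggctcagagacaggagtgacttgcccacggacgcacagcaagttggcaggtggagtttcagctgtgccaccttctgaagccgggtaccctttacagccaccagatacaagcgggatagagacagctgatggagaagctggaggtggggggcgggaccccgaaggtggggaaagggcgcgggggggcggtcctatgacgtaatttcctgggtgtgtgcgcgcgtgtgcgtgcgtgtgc
Neurod6, chr6:55681264-55681513, minus strand: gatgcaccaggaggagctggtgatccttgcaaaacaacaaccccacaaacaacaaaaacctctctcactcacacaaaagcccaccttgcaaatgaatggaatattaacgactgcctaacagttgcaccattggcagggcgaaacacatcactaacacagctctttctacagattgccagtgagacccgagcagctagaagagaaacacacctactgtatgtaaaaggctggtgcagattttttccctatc
Gm3279, chr6:55684321-55684570, plus strand: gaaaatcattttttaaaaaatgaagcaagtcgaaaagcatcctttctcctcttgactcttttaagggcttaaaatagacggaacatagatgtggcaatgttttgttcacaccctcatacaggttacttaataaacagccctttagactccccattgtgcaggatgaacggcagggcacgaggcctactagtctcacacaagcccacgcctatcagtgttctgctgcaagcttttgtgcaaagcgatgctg
Of these windows, that of Sst held 1 cAMP response element, beginning 48 bases before the gene start, and the other windows held neither motif. Of all 32851 promoter windows of this length, 1.55% held the cAMP response element and 14.4% the E-box. Of the genes called below, 36 had a window in the table, and 1 of them (Sst) held the cAMP response element and 4 the E-box (Aak1, Bex2, Blnk and Kcnip3, chosen after their values were seen).

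With both states in one fit, 42 of the 15355 genes differed between KO and WT mice by edgeR's quasi-likelihood test (Benjamini-Hochberg adjusted p-value under 0.05), which is 0.274% of the genes tested. The count ran from 24 (without Glu-CB1-WT basal replicate 1) to 97 (without Glu-CB1-WT basal replicate 3) when 1 library was left out, and DESeq2 called 106 genes. Of the 42 genes, 25 were higher (0.163%) and 17 lower (0.111%) in KO mice. The changes were small. The median log2 fold change was 0.24 for the higher genes and -0.32 for the lower genes, 20 genes changed by less than 0.3, and 1 gene (Gm3279) changed by at least 1. The median over all genes tested was -0.0020. For 3 genes (0.0195% of all tested) the range of the 14 KO libraries lay outside that of the 10 WT libraries. Cnr1 and Neurod6 lay below it (0.013%) and Gm3279 above it (0.00651%).

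Cnr1 itself (chr4:33924632-33948831, plus strand, mm10) was lower in every KO library. Its normalized counts (CPM, the count scaled to library size with TMM factors) were 376, 410, 339, 376 and 395 in the WT basal libraries and 339, 396, 369, 389 and 331 in the WT open field libraries. In KO mice they ran from 208 over a median of 226 to 248 in the basal state and from 204 over 220 to 248.9 after the open field. All KO values were under all WT values, and KO mice kept 60.4% of the WT mean (log2 fold change -0.73 ± 0.04 SE, adjusted p = 1.81e-12 by edgeR's quasi-likelihood test). The tissue is a mixture of cells, so a loss of Cnr1 RNA per cell and fewer cells that express it cannot be told apart, here and for the genes below. The sources used here do not say which part of Cnr1 is removed, and the counts cover all its exons. None of the 26 genes tested within 5 Mb of Cnr1 was called by edgeR or by DESeq2 (3 at an unadjusted p under 0.05 in edgeR).

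The other genes of the endocannabinoid system did not pass the test. Of 15 tested genes, 1 (Cnr1) was called, 5 were above 0 and 10 below, and their median log2 fold change was -0.017. The unadjusted edgeR p was under 0.05 for 3 of the 15, Cnr1 among them, against 1122 of all 15355 genes. Mgll, which degrades the endocannabinoid 2-AG, was at 206 CPM in WT and 205 CPM in KO mice. Dagla, which makes 2-AG, was at 217 and 211 CPM, and Cnrip1, a protein that binds the tail of CB1, at 93.5 and 94.0 CPM. Faah, which degrades anandamide, had a log2 fold change of -0.09 ± 0.04 SE (adjusted p = 0.540, edgeR). Of 25 genes of Gi/o signalling, edgeR called none, with 2 at an unadjusted p under 0.05, and DESeq2 called 1 (Rgs2).

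Neurod6 (chr6:55677819-55681263, minus strand) was also lower in every KO library than in any WT library. Its level was 380, 386, 306, 342 and 325 CPM in the WT basal libraries and 346, 350, 338, 400 and 352 CPM in the WT open field libraries. The KO libraries ran from 199 over a median of 219 to 258 CPM in the basal state and from 198 over 204 to 237 CPM after the open field. KO mice kept 60.7% of the WT mean (log2 fold change -0.72 ± 0.04 SE, edgeR adjusted p = 2.36e-11), beside 60.4% for Cnr1. Of the 22 transcription factors of glutamatergic neurons on the list, Neurod6 was the only one called. Their median log2 fold change was 0.022.

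Gm3279, a predicted gene on the plus strand (chr6:55684571-55694574), begins 3308 bases from Neurod6 and was scarcely counted in WT mice. It had between 5 and 13 reads per library in WT mice and between 57 and 140 reads in KO mice. The WT values were 0.324, 0.299, 0.152, 0.354 and 0.382 CPM in the basal state and 0.378, 0.456, 0.327, 0.227 and 0.169 CPM after the open field. The KO values ran from 2.12 over a median of 2.89 to 4.20 CPM in the basal state and from 1.76 over 2.71 to 3.18 CPM after the open field. The log2 fold change was 3.19 ± 0.18 SE (edgeR adjusted p = 4.98e-12), the greatest in size among all genes called.

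**Figure D1:**
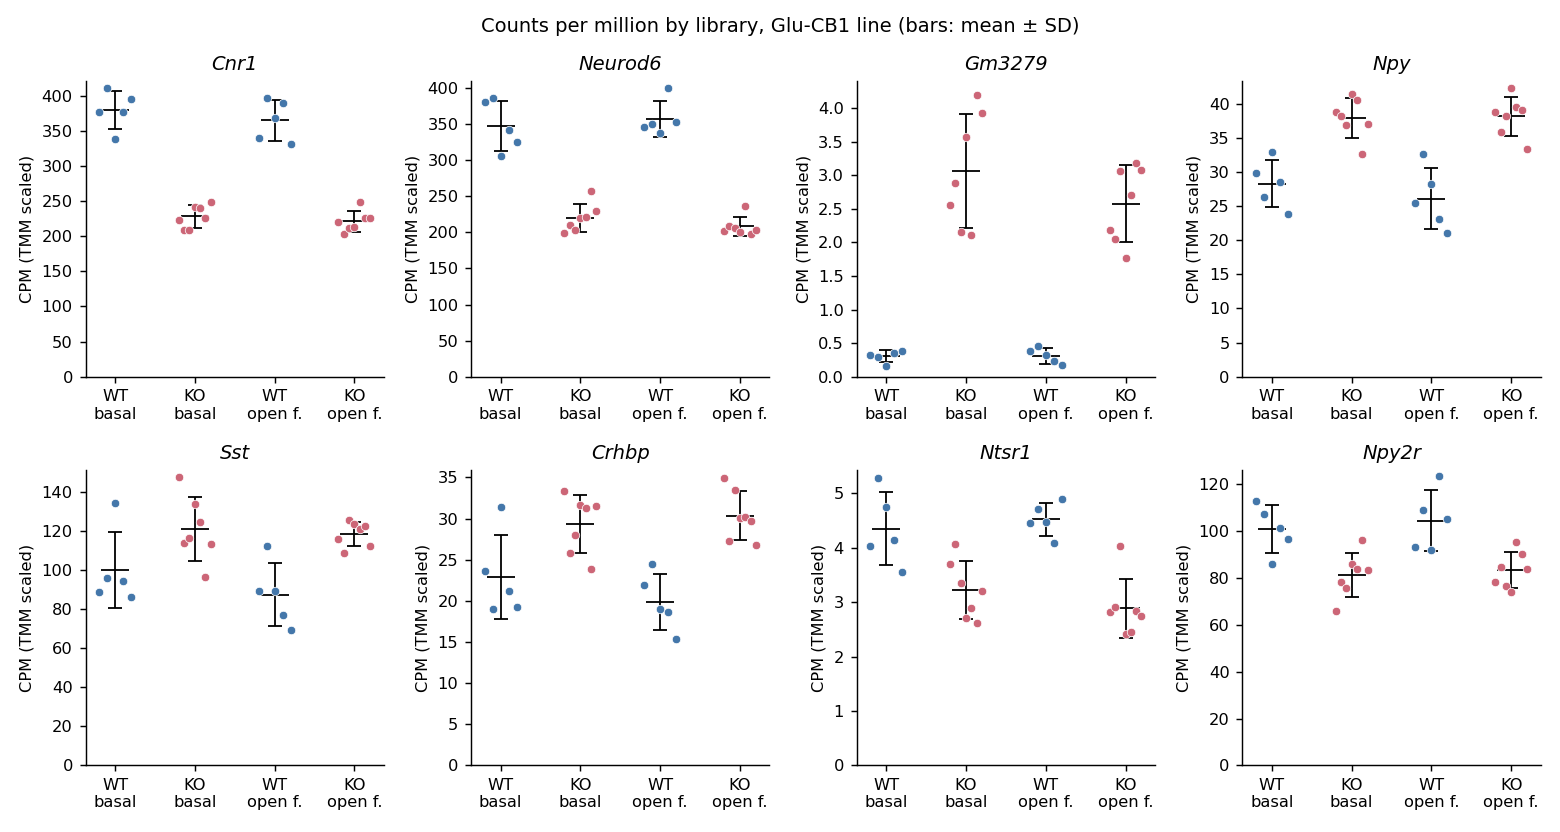
Each point is 1 library, with CPM (TMM scaled, linear axis from 0) of 8 genes in the 4 Glu-CB1 groups, WT blue and KO red, and black bars for the mean ± SD of 5 WT or 7 KO libraries. Cnr1, Neurod6 and Gm3279 separate all KO from all WT libraries in both states, while the other 5 genes shift with some overlap.

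A larger share of genes was called around Neurod6 than on other chromosomes. Chromosome 6 carries 762 (4.96%) of the genes tested and 10 (23.8%) of the genes called. Within 5 Mb of Neurod6, 3 of 49 genes were called (6.12%, Gm3279 among them) and 19 had an unadjusted p under 0.05 (38.8%). Between 5 and 10 Mb away it was 3 of 49 genes called, and between 10 and 20 Mb 0 of 83 by edgeR, with 6 of these at an unadjusted p under 0.05 and 1 called by DESeq2. On the other chromosomes, 32 of 14593 genes were called (0.219%) and 7.06% had an unadjusted p under 0.05. The calls went in both directions, with 4 genes higher and 6 lower on chromosome 6. The part of this position in the KO effect was not tested, and for the genes concerned it is stated beside the result.

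Beside Neurod6, Gm3279, Npy and B230110G15Rik, the chromosome 6 genes called were Fkbp9, Pyurf, Ccser1, Osbpl3, Sema4f and Aak1, which are named here after their values were seen. Fkbp9 (1.15 Mb from Neurod6) and Pyurf (2.00 Mb) were lower, with log2 fold changes of -0.21 ± 0.04 and -0.26 ± 0.04 SE. Osbpl3 (5.22 Mb) and Ccser1 (5.50 Mb) were higher, by 0.24 ± 0.05 and 0.21 ± 0.04 SE. With 1 library left out in turn, Osbpl3 was called in 7 of 24 fits and Ccser1 in 24, and with the number that ends each library name (in 3 ranges) as a factor Osbpl3 was not called (adjusted p = 0.0874). Sema4f, a semaphorin of the membrane, lies 27.2 Mb away and was lower in both states (-0.20 ± 0.02 SE, adjusted p = 5.31e-05). It was between 66.8 and 76.0 CPM in WT and between 58.6 and 66.9 CPM in KO libraries. The long noncoding RNA B230110G15Rik lies 82.9 Mb away and kept 56.6% of its WT level, at 1.31 to 3.10 CPM in WT and 0.925 to 1.68 CPM in KO libraries (log2 fold change -0.82 ± 0.12 SE, adjusted p = 0.00100, all by edgeR's quasi-likelihood test).

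**Figure D2:**
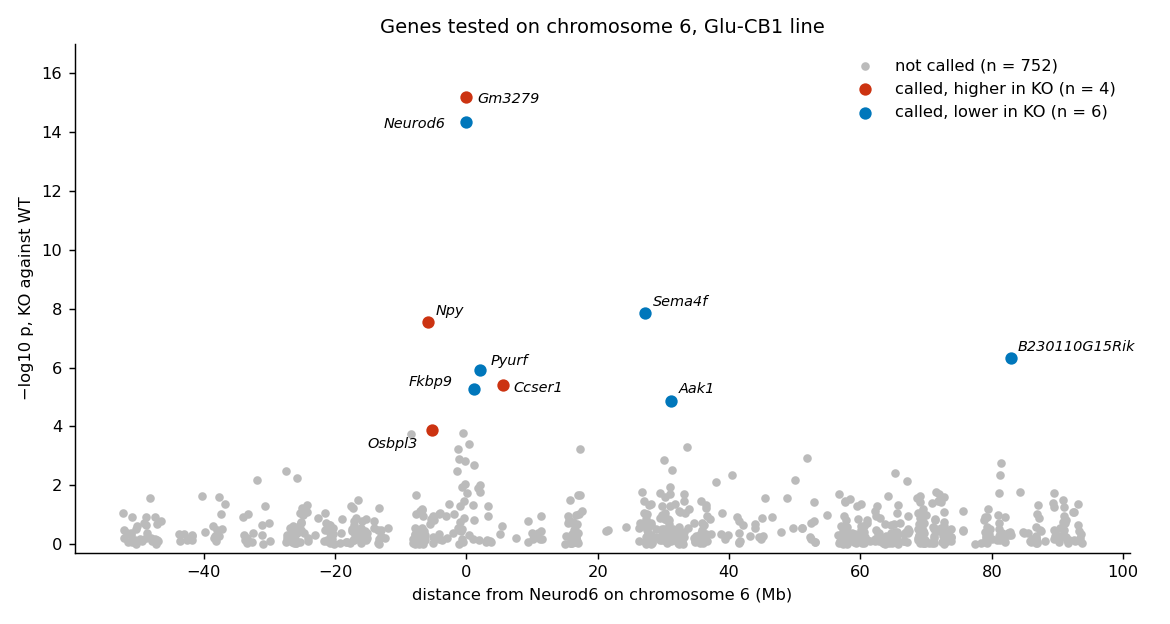
Each point is 1 of the 762 genes tested on chromosome 6, with its distance from Neurod6 in Mb on the x axis and −log10 of the unadjusted edgeR p-value of KO against WT on the y axis, and the genes called in red (4 higher) or blue (6 lower). Gm3279 and Neurod6 stand at the centre, and Gm3279, Fkbp9, Pyurf, Osbpl3, Ccser1 and Npy lie within 10 Mb of Neurod6.

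Of 29 neuropeptide precursors and granins tested, 3 were higher in KO mice (Npy, Sst and Chga), none was lower, 21 were above 0, and the median log2 fold change was 0.12. The 3 precursors, of which Npy lies on chromosome 6, stand beside a background of 0.163% of all genes called higher. The list was chosen with earlier results of these data known, so this count is a description. Of 25 peptide receptors and binding proteins, a list chosen likewise, edgeR called 1 higher (Crhbp) and 2 lower (Ntsr1 and Npy2r). Of all genes, 0.163% were called higher and 0.111% lower. The median of the list was -0.0021. The unadjusted edgeR p was under 0.05 for 10 of the 25, against 1122 of all 15355 genes, and DESeq2 called 4 of them (also Cckbr).

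Npy encodes neuropeptide Y, an inhibitory peptide of interneurons, and lies on chromosome 6, 5.85 Mb from Neurod6. Its level was 29.8, 26.3, 32.97, 28.5 and 23.8 CPM in the WT basal libraries and 25.5, 32.7, 28.2, 23.03 and 21.1 CPM in the WT open field libraries. The KO libraries ran from 32.6 over a median of 38.2 to 41.4 CPM and from 33.3 over 38.8 to 42.2 CPM. Of the 14 KO libraries, 13 were above the highest WT library, and KO mice had 140% of the WT mean (log2 fold change 0.48 ± 0.06 SE, edgeR adjusted p = 8.61e-05). The call was made in each of the 24 fits that left out 1 library.

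Sst encodes somatostatin and lies on chromosome 16. It was at 89.0, 95.9, 135, 94.5 and 86.3 CPM in the WT basal libraries and at 89.1, 113, 89.1, 77.1 and 69.6 CPM in the WT open field libraries. KO libraries ran from 96.3 over 116 to 148 CPM in the basal state and from 109 over 121 to 126 CPM after the open field. One WT basal library, replicate 3 at 135 CPM, lay above 13 of the 14 KO libraries, and 8 of 10 WT libraries lay below every KO library. The log2 fold change was 0.36 ± 0.08 SE (adjusted p = 0.0419), 0.42 without that library (adjusted p = 0.00156), and the gene was called in 5 of the 24 fits that left out 1 library, with edgeR adjusted p between 0.00156 and 0.105.

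Crhbp, on chromosome 13, encodes the protein that binds and neutralises corticotropin-releasing hormone, and is made by somatostatin interneurons in the hippocampus. WT basal libraries were at 23.6, 19.0, 31.4, 21.2 and 19.3 CPM and WT open field libraries at 21.9, 24.5, 19.0, 18.7 and 15.4 CPM. KO libraries ran from 23.8 over 31.3 to 33.4 CPM and from 26.8 over 30.1 to 34.97 CPM. The groups overlapped through WT basal replicate 3 and 1 WT open field library, and the log2 fold change was 0.48 ± 0.08 SE (edgeR adjusted p = 0.00532), called in all 24 fits without 1 library. Chga, the granin of dense-core vesicles, was higher by 0.14 ± 0.03 SE (mean 103 CPM in WT and 113 CPM in KO mice, edgeR adjusted p = 0.0398), and was called in 9 of those 24 fits.

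Both receptors called by edgeR were lower. Ntsr1, a receptor of neurotensin, was at 4.03, 5.28, 4.75, 4.14 and 3.55 CPM in the WT basal libraries and at 4.44, 4.70, 4.47, 4.08 and 4.89 CPM in the WT open field libraries. KO libraries ran from 2.61 over 3.21 to 4.06 CPM and from 2.41 over 2.82 to 4.04 CPM. Of 14 KO libraries, 11 were below the lowest WT library (log2 fold change -0.54 ± 0.09 SE, edgeR adjusted p = 0.00212).

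Npy2r encodes a presynaptic receptor of neuropeptide Y. It was at 113, 107, 86.0, 102 and 96.5 CPM in the WT basal libraries and at 93.2, 109, 91.8, 123 and 105 CPM in the WT open field libraries, against 66.1 to 96.2 CPM (median 83.4) and 74.2 to 95.6 CPM (median 83.9) in KO libraries. The KO mean was 80.2% of the WT mean, and 11 of 14 KO libraries were below every WT library (log2 fold change -0.32 ± 0.06 SE, edgeR adjusted p = 0.00794). Thus the peptide, whose gene lies on chromosome 6, and this receptor of it went in opposite directions. Among receptors not called by edgeR, Cckbr (cholecystokinin) had a log2 fold change of 0.21 ± 0.05 SE (adjusted p = 0.111, called by DESeq2) and Crhr1 (corticotropin-releasing hormone) of -0.22 ± 0.07 SE (adjusted p = 0.244, both edgeR).

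The markers of somatostatin interneurons were mostly above 0. Of 13 tested, 3 were called higher (Npy, which lies on chromosome 6, Crhbp and Sst, already counted above), against 0.163% of all genes. Of the 13, 12 were above 0, and the median log2 fold change was 0.19, against -0.0020 over all genes. The list was chosen with earlier results of these data known and holds genes that the study named, so these counts are a description. The summed level of the 13 markers was 470 to 602 CPM in WT and 534.7 to 646 CPM in KO libraries. Among those not called, Rab3b was at 0.19 ± 0.06 SE (adjusted p = 0.238), Elfn1 at 0.16 ± 0.05 SE (adjusted p = 0.250) and Lhx6, the factor that specifies these cells, at 0.08 ± 0.05 SE (adjusted p = 0.835, all edgeR). None of 21 general interneuron markers was called by edgeR (3 at an unadjusted p under 0.05) or DESeq2. Their median was 0.037 and their sums were 1147.4 to 1325 CPM in WT and 1136 to 1417 CPM in KO libraries.

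All marker lists of the CA fields were well expressed, and markers of regions next to them were present too. Summed CA1 markers were at 887.1 to 1216 CPM in WT and 1002 to 1293 CPM in KO libraries, and CA3 and CA2 markers at 1112 to 1413 CPM and 1115 to 1353 CPM. Dentate granule markers, although the dentate gyrus had been removed, were at 385 to 566 CPM in WT and 402 to 712 CPM in KO libraries, with none of 15 called by edgeR, 2 at an unadjusted p under 0.05 and 1 called by DESeq2 (Calb1). The median log2 fold change was 0.10 for 12 CA1 markers, -0.11 for 17 CA3 and CA2 markers, 0.16 for 14 markers of subiculum and cortex and -0.12 for 13 thalamic markers. Of these 4 lists, 1 gene was called by edgeR, the thalamic marker Plekhg1 (lower). The unadjusted edgeR p was under 0.05 for 9 of the 14 markers of subiculum and cortex and 7 of the 13 thalamic markers. It was under 0.05 for 5 of the 12 CA1 and 4 of the 17 CA3 and CA2 markers, and for 1122 of all 15355 genes. The summed levels overlapped for subiculum and cortex (423 to 495 CPM in WT and 437 to 541 CPM in KO libraries) and for thalamus (135 to 168 CPM and 126 to 152 CPM). Choroid plexus markers had a median log2 fold change of 0.50 with no call. Their sum was 59.0 to 133 CPM (median 71.4) in WT and 46.5 to 662 CPM (median 74.2) in KO libraries. Glu-CB1-KO basal replicate 6 was the highest, followed by Glu-CB1-KO open field replicate 4. The part of these tissues in the KO effect was not tested. Of 8 striatal markers and 1 blood marker tested, none was called by edgeR (2 striatal markers at an unadjusted p under 0.05) or DESeq2. Glial and vascular lists (oligodendrocytes, astrocytes, microglia, vascular cells) held no gene called by edgeR or DESeq2 and none with an unadjusted p under 0.05 in edgeR.

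**Figure D3:**
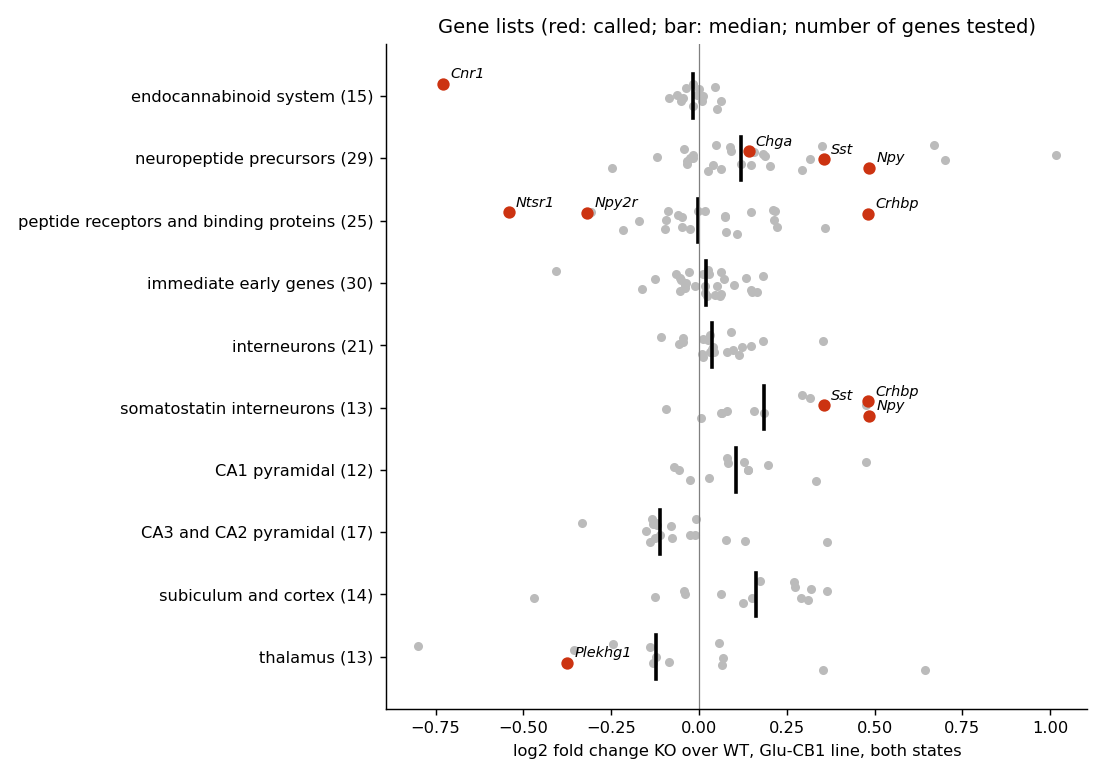
Each point is 1 gene, placed by its log2 fold change of KO over WT in the Glu-CB1 line with both states together, in rows for 10 gene lists with the number tested in brackets, and with genes called in red and the median of the list as a black bar. The medians of neuropeptide precursors (0.12), somatostatin interneurons (0.19) and subiculum and cortex (0.16) lie right of 0, and those of CA3 and CA2 (-0.11) and thalamus (-0.12) left of it.

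Other genes of diverse function were higher in KO mice. Bmp3, a ligand of the TGF-beta family, was between 1.73 and 2.94 CPM in WT and between 2.57 and 5.78 CPM in KO libraries, which gave 159% of the WT mean (log2 fold change 0.67 ± 0.11 SE, adjusted p = 0.00307). Pdlim1, an adaptor of the actin cytoskeleton, was between 2.04 and 3.20 CPM in WT and between 2.98 and 5.21 CPM in KO libraries (0.61 ± 0.09 SE, adjusted p = 0.00100). Of 14 KO libraries, 12 were above every WT library for Bmp3 and 13 for Pdlim1. Blnk, an adaptor of B-cell receptor signalling, rose by 0.49 ± 0.10 SE (adjusted p = 0.0309), from 3.01 to 5.23 CPM in WT to 4.47 to 8.69 CPM in KO libraries. Pdlim1 and Blnk both lie on chromosome 19, and the part of this shared position in their effects was not tested. Sema3a, a secreted axon guidance cue (0.48 ± 0.10 SE), Spint1, a protease inhibitor (0.40 ± 0.08 SE), and the adaptor Shb (0.31 ± 0.07 SE) were also higher, with adjusted p-values of 0.0457, 0.0234 and 0.0419. Of 46 potassium channel genes, edgeR called 1, against 0.274% of all genes, and DESeq2 called 3 (Kcnip3, Kcnip1 and Kcnn2). The one called by both was Kcnip3, a calcium sensor that modulates Kv4 channels (0.16 ± 0.04 SE, adjusted p = 0.0471, all by edgeR's quasi-likelihood test). The unadjusted edgeR p was under 0.05 for 7 of the 46 potassium channel genes, against 1122 of all 15355 genes. With 1 library left out in turn, Blnk was called in 19, Spint1 in 22, Kcnip3 in 9, Shb in 8 and Sema3a in 6 of the 24 fits.

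Among the genes that fell, Wnt11, a Wnt ligand, was low throughout, with 13 to 36 reads per library in WT and 11 to 28 reads in KO mice (log2 fold change -0.74 ± 0.14 SE, adjusted p = 0.00992). Ackr2, a scavenging chemokine receptor, was between 1.23 and 2.23 CPM in WT and between 0.751 and 1.54 CPM in KO libraries (-0.70 ± 0.12 SE, adjusted p = 0.00273). Plekhg1, which has domains of a guanine exchange factor, had a median of 36.1 CPM in WT and 28.4 CPM in KO libraries (-0.38 ± 0.05 SE, adjusted p = 0.000386). Lpl, lipoprotein lipase, kept 80.1% of its WT level (-0.32 ± 0.05 SE, adjusted p = 0.00390), and Col11a1, a fibrillar collagen, kept 77.8% (-0.36 ± 0.06 SE, adjusted p = 0.00593, all edgeR). Lists without a call by edgeR were glutamate receptors (24 tested, 4 at an unadjusted p under 0.05), GABA synthesis and receptors (21 tested, 5), vesicle release (36 tested, 5) and monoamine and muscarinic receptors (30 tested, 3). DESeq2 called none of the first 3 lists and 2 genes of the last (Adra2a and Htr2a). Of all 15355 genes tested, 1122 had an unadjusted edgeR p under 0.05.

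The pooled fit assumed that KO mice differ from WT mice in the same way at rest and after stimulation. Contrasts per state and a test of the difference between states were set beside it. All 42 genes had the same sign in both states when each state was taken alone, which is a description, since the fit that chose them used both states. Taken alone, with all 24 libraries in the fit, the basal contrast called 4 genes (0.0261% of all tested), which were Cnr1, Neurod6, Gm3279 and Sema4f. The open field contrast called 14 genes (0.0912%), and 13 of them were among the 42. The remaining one was Efcab6, named after its values were seen (-0.41 ± 0.08 SE after the open field and -0.25 ± 0.06 SE in the pooled fit, adjusted p = 0.0398 and 0.111, edgeR). Neither state alone called 29 of the 42 genes, among them Sst, Chga, Bmp3, Pdlim1, Blnk, Ackr2, Lpl and Npy2r.

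No gene passed the test of the difference between states. With edgeR's quasi-likelihood interaction test 0 genes were called, 379 had an unadjusted p under 0.05, and the smallest adjusted p was 0.999933. DESeq2 called 0 genes as well. With 5 WT and 7 KO libraries per state, the absence of calls does not show that the effects were equal. For Npy the effect was 0.42 ± 0.09 SE in the basal state and 0.55 ± 0.09 SE after the open field, and for Cnr1 -0.73 ± 0.06 and -0.72 ± 0.06 SE. For Crhbp it was 0.36 ± 0.12 and 0.61 ± 0.12 SE, and for Ntsr1 -0.44 ± 0.12 and -0.65 ± 0.12 SE. Blnk went the other way, with 0.69 ± 0.14 SE in the basal state and 0.29 ± 0.14 SE after the open field. Of the 42 genes, 25 had the larger effect after the open field and 17 in the basal state.

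**Figure D4:**
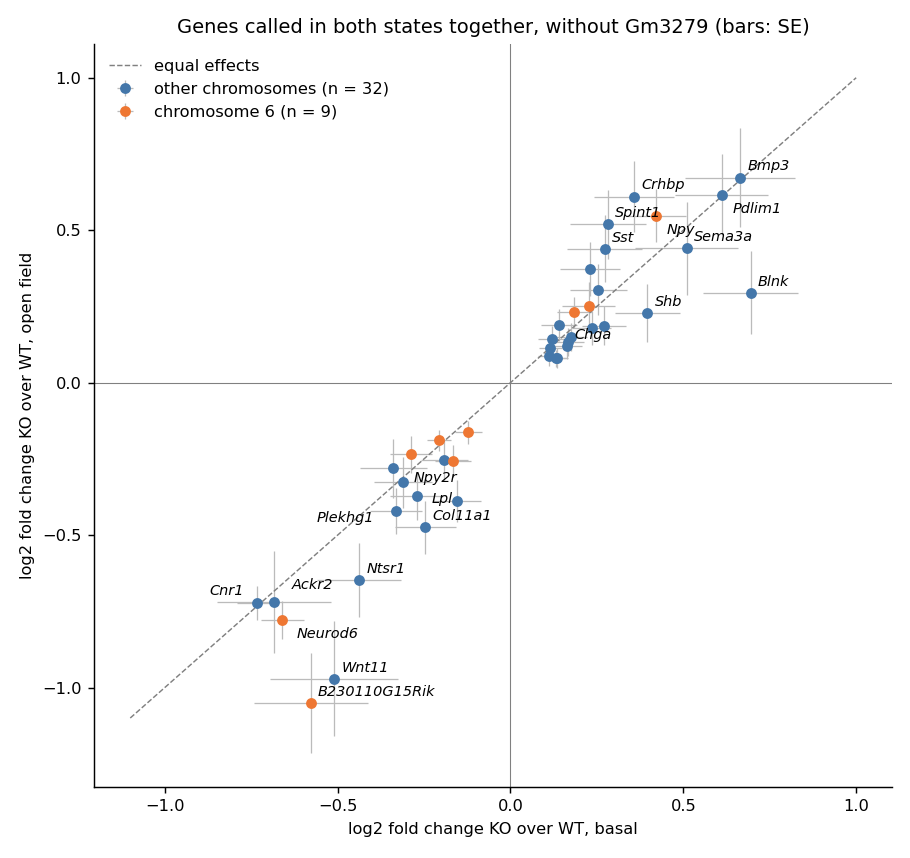
Each point is 1 of 41 genes called with both states together (Gm3279, at 3.34 basal and 3.03 open field, is left out), with its log2 fold change of KO over WT in the basal state on the x axis and after the open field on the y axis, bars for the SE, and chromosome 6 in orange. All genes lie in the quadrants of equal sign. Some lie off the dashed line of equal effects, such as Wnt11 (-0.51 basal and -0.97 open field) and Blnk (0.69 and 0.29).

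The response of the WT and KO mice to the arena was a separate effect. Between states, 276 genes differed in the Glu-CB1 line (1.8% of 15355, edgeR), and 1 of the 42 KO genes was among them, Fbxw7, named after its values were seen (-0.08 from basal to open field). Of 30 immediate early genes none was called for genotype by edgeR (3 at an unadjusted p under 0.05) or DESeq2. Fosb ran from 3.74 to 6.21 CPM in WT basal and from 5.30 to 8.06 CPM in KO basal libraries, and from 9.61 to 20.3 CPM and 11.2 to 24.6 CPM after the open field, and its KO effect was 0.15 ± 0.14 SE (adjusted p = 0.920, edgeR). Arc had a KO effect of 0.02 ± 0.15 SE, Bdnf of 0.02 ± 0.06 SE and Nr4a2 of 0.06 ± 0.11 SE.

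Of the further genes that the study singled out, Grin2b had a KO effect of -0.11 ± 0.29 SE, with single libraries between 34.1 and 171 CPM in the KO groups and between 36.02 and 170 CPM in the WT groups. Libraries whose names end in the lowest range of numbers were between 34.1 and 104 CPM, and the others between 73.9 and 171 CPM. Ldb2 was at 0.29 ± 0.09 SE (adjusted p = 0.296), Kcnn2 at 0.14 ± 0.04 SE (adjusted p = 0.131), Sptb at -0.14 ± 0.03 SE (adjusted p = 0.0660), Adgrl2 at 0.10 ± 0.07 SE and Tdo2 at 0.06 ± 0.18 SE, none of them called by edgeR. These effects pool both states, whereas the study named Ldb2, Kcnn2, Sptb and Rab3b from open field mice. After the open field, Kcnn2 was between 65.7 and 71.6 CPM in WT and between 72.4 and 84.6 CPM in KO libraries. Sptb was then between 336 and 366 CPM in WT and between 272 and 331 CPM in KO libraries. Ldb2 overlapped, at 27.9 to 38.5 CPM in WT and 36.1 to 49.2 CPM in KO open field libraries. Of the 16 genes singled out, edgeR called 5 (Cnr1, Npy, Crhbp, Blnk and Sst), against 0.274% of all genes. DESeq2 called 7 (also Kcnn2 and Sptb). Cnr1 is the deleted gene, Arc, Tdo2 and Adgrl2 (formerly Lphn2) served the study as measures of activation and dissection, and the genes it picked for their differences in these samples are not independent evidence. The study also measured Nr4a2, Grin2b, Fosb, Crhbp, Bdnf and Npy by RT-qPCR in samples independent of these libraries, and those measurements were not used here.

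The libraries also differed in a way that the groups do not explain. The number that ends each library name falls into 3 separate ranges, a low one (7 KO and 4 WT libraries), a middle one (4 and 1) and a high one (3 and 5), and 3196 genes (20.8%) differed between the ranges by edgeR. The first principal component (23.1% of the variance of the 500 most variable genes) placed all libraries of the low range below the others and did not separate genotypes (permutation p = 0.835, 14 KO against 10 WT libraries, two-sided). The second component (12.95%) had a mean score of -2.61 in KO and 3.66 in WT mice (permutation p = 0.00294, adjusted for 2 components 0.00588). Over all genes the permutation p of the second component was 0.0252 before adjustment, and on the first component the low range (up to 0.348) overlapped with the others (from -1.23).

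All 42 genes, chosen on all ranges together, had the same sign within each of the 3 ranges. From the low over the middle to the high range, the difference of Npy was 0.51, 0.30 and 0.40 on the log2 scale, that of Sst 0.38, 0.16 and 0.28, that of Crhbp 0.43, 0.33 and 0.49, and that of Ntsr1 -0.46, -0.78 and -0.58. The middle range rests on 1 WT library. With the range as a factor edgeR again called 42 genes (0.274%), of which 32 were shared with the fit without it. Sst (adjusted p = 0.105), Chga (0.0914), Sema3a (0.124), Blnk (0.0508) and Shb (0.0763) were among the 10 genes not called then.

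The second line of the series deletes CB1 from GABAergic neurons (GABA-CB1, with Cre under Dlx5/6 elements), and the same genes were set beside it. Its own 24 libraries (13 WT, 11 KO), with own controls, gave 55 called genes of 15374 (0.358%). Of the 42 Glu-CB1 genes, 9 were called in that line, 2 in the same direction (Cnr1 and Col11a1) and 7 in the opposite direction, among them Pdlim1, Crhbp, Blnk and Sst. Pdlim1 and Blnk share chromosome 19, so they may not be separate cases. The test of the difference between lines, over all 48 libraries, called 116 of 15570 genes (0.745%) and 30 of the 42. Since the 42 were chosen by one of the effects compared, that share is a description.

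Cnr1 was at 142 ± 15.7 CPM (SD, n = 11) in GABA-CB1-KO and 361 ± 24.7 CPM (SD, n = 13) in GABA-CB1-WT mice, and its fall in the Glu-CB1 line was smaller by 0.61 (log2) (edgeR adjusted p = 6.69e-08). Neurod6 was at 333 ± 20.4 and 338 ± 23.7 CPM in the KO and WT mice of the GABA-CB1 line, and Gm3279 at 0.327 ± 0.0938 and 0.398 ± 0.108 CPM, so that neither was called there. Their difference between lines was -0.70 (adjusted p = 2.59e-11) and 3.45 (adjusted p = 2.74e-13, both edgeR).

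Sst and Crhbp fell in the GABA-CB1 line. Sst fell there by 0.31 ± 0.05 SE (86.3 ± 4.97 CPM in 11 KO and 107 ± 10.8 CPM in 13 WT libraries, SD; edgeR adjusted p = 0.000860) and Crhbp by 0.42 ± 0.06 SE (edgeR adjusted p = 0.000501). Npy was at -0.25 ± 0.06 SE (adjusted p = 0.0851) and Ntsr1 at 0.39 ± 0.09 SE (adjusted p = 0.0633), neither called there by edgeR. The differences between lines passed the test for Npy (0.73), Sst (0.67), Crhbp (0.90), Ntsr1 (-0.93) and Npy2r (-0.37), with edgeR adjusted p-values of 4.47e-07, 6.92e-06, 1.99e-07, 5.95e-06 and 0.00220. They did not pass it for Chga (0.13, adjusted p = 0.471), Spint1 (0.37, 0.122), Shb (0.32, 0.212), B230110G15Rik (-0.65, 0.102) and Col11a1 (-0.07, 0.938).

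**Figure D5:**
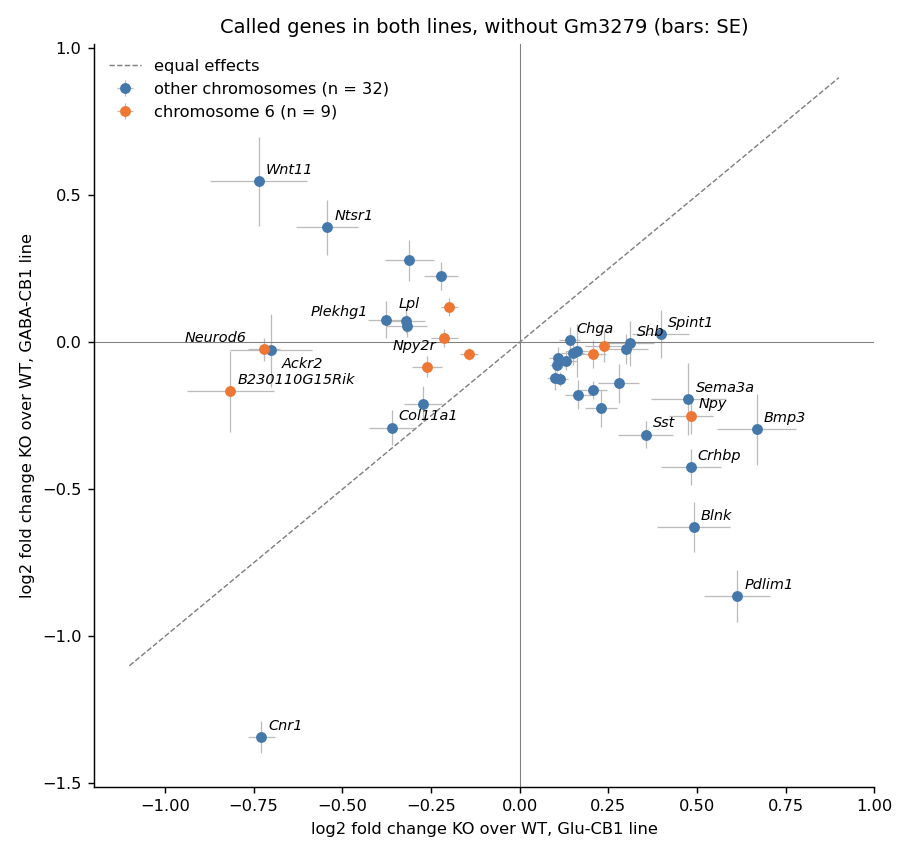
Each point is 1 of 41 genes called in the Glu-CB1 line (Gm3279 is left out), with its log2 fold change of KO over WT in that line on the x axis and in the GABA-CB1 line on the y axis, bars for the SE, and chromosome 6 in orange. Cnr1 and Col11a1 lie low in both lines, Pdlim1, Blnk, Crhbp and Sst are higher in the Glu-CB1 line and lower in the GABA-CB1 line, and Neurod6 lies near 0 in the GABA-CB1 line.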

How the data were processed

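RNA of hippocampal CA tissue was sequenced from 48 mice, and the 24 libraries of the Glu-CB1 line were used here for the main fit. The authors aligned single-end reads to mm10 with STAR 2.6.0a and counted them per gene and strand with featureCounts 1.6.2, and they deposited raw counts without normalization. Groups were taken from the sample labels.

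KO and WT were compared with edgeR 4.0.16 in R 4.3.3 (glmQLFit and glmQLFTest, TMM, filterByExpr over the 4 groups, state as covariate, Benjamini-Hochberg adjustment over all genes tested, threshold 0.05). Effects per state, their difference, and the GABA-CB1 line were fitted alike. Standard errors were derived from the F statistic. Principal components used log2 CPM with a prior count of 2, and scores were permuted within states 100000 times. The reads carry no molecular identifiers, so depth gives counting error alone and errors are taken between mice. The scripts were tested on simulated data. DESeq2 1.42.0 and other settings were alternatives.

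The members and gene lists were chosen with earlier results of these data known. Named were Cnr1 and Neurod6, up to 10 called genes per direction with the largest change, up to 3 called genes per list, called genes without overlap of libraries, and genes that the study names. The number ending the library name is not explained by the labels. Exclusion of libraries rich in choroid plexus markers, fits within name ranges, a principal component as covariate and the open field response were added after seeing the data. No pair of libraries within a group (62 pairs) was close enough to be a duplicate (lowest chi-square per degree of freedom 3.79).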

Additional observations from a re-analysis of the deposited data

Results flagged for a closer look

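Single libraries stood apart from their group in 10 of 132 tests by Dixon's ratio (33 named genes in 4 groups), of which chance gives about 1 in 20. Among the genes of the main results, Neurod6 was high in Glu-CB1-KO open field replicate 5 (237 CPM, next 208) and in Glu-CB1-WT open field replicate 4 (399.6 CPM, next 352), and Sst was high in Glu-CB1-WT basal replicate 3 (135 CPM, next 95.9). Ntsr1 was high in Glu-CB1-KO open field replicate 3 (4.04 CPM), Chga in Glu-CB1-KO basal replicate 1 (127 CPM), Fosb in Glu-CB1-KO basal replicate 5 (8.06 CPM) and Shb in Glu-CB1-WT open field replicate 3 (9.01 CPM). Low libraries were Glu-CB1-WT basal replicate 2 for Sema3a (2.03 CPM), Glu-CB1-WT basal replicate 3 for Bdnf (43.2 CPM) and Glu-CB1-WT open field replicate 5 for Bdnf (44.5 CPM).

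For 19 named genes the KO effect differed between the lines (edgeR's quasi-likelihood test over 48 libraries, Benjamini-Hochberg adjusted p-value under 0.05). As Glu-CB1 minus GABA-CB1 effect on the log2 scale, the difference was 0.61 for Cnr1, -0.70 for Neurod6, 3.45 for Gm3279, 0.97 for Bmp3, 1.48 for Pdlim1, 1.12 for Blnk, 0.73 for Npy, 0.90 for Crhbp, 0.67 for Sema3a and 0.67 for Sst. It was -1.28 for Wnt11, -0.67 for Ackr2, -0.93 for Ntsr1, -0.45 for Plekhg1, -0.39 for Lpl, -0.37 for Npy2r, 0.34 for Kcnip3, 0.38 for Rab3b and 0.26 for Kcnn2. Within the Glu-CB1 line edgeR called neither Rab3b nor Kcnn2, and DESeq2 called Kcnn2.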

How the results depend on the processing

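Of the 42 genes, all kept their direction in the 24 fits that left out 1 library, and 22 were called in each of them. The number called ran from 24 to 97 over these fits. It was 24 without Glu-CB1-WT basal replicate 1, 25 without Glu-CB1-WT basal replicate 4, 26 without Glu-CB1-WT open field replicate 4, 27 without Glu-CB1-KO basal replicate 1, 87 without Glu-CB1-KO basal replicate 6 and 97 without Glu-CB1-WT basal replicate 3. DESeq2 called 106 genes (67 higher, 39 lower, all 42 among them), the first principal component as a covariate 82 (all 42 among them), the 11 libraries of the low name range called 3 and the 13 other libraries 10, with fewer samples in these fits. Without the 2 libraries high in choroid plexus markers 57 were called, 38 of them shared. Cnr1 and Neurod6 were called in all 14 alternatives.

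With the replicate number as a block 88 genes were called (52 higher, 36 lower, 38 shared). The numbers do not pair the mice, since over 32 pairs of the same number the correlation of deviations ran from -0.35 to 0.41, 11 were over 0.1, and 6 of 24 libraries correlated best with their own number.

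DESeq2 called 11 genes in the basal state (edgeR 4), 32 after the open field (edgeR 14) and 131 in the GABA-CB1 line (edgeR 55). The 12 open field libraries alone gave 41 calls with edgeR. The cause of these differences in count was not tested.

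Among genes not called, signs reversed for Grin2b (0.19 with range as a factor, 0.59 in the low name range), Bdnf (-0.0029 with the block, -0.0049 without the choroid-rich libraries), Arc (-0.046 without the latter, -0.029 in the 13 other libraries), Nr4a2 (-0.077) and Tdo2 (-0.035, both in the 13 other libraries). With 1 library left out, they ran from -0.043 to 0.15 for Arc, from -0.012 to 0.039 for Bdnf and from -0.027 to 0.16 for Tdo2. For genes with few reads, such as Gm3279 in WT mice and Wnt11, depth limits the precision.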
